A study of Mus musculus with 18 samples.

Results

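The genes examined were the subunits of the oxidative phosphorylation complexes, taken as the protein-coding genes whose names match the families Nduf, Sdh, Uqcr, Cox4 to Cox8 and Atp5, with the mitochondrially encoded mt-Nd, mt-Co, mt-Atp and mt-Cytb genes. They were 102 of the 29437 genes in the deposited count table. By complex, 83 were nuclear genes for subunits, with 38 in complex I, 4 in complex II, 8 in complex III, 17 in complex IV and 16 in complex V. Another 10 were mitochondrial genes, 6 for complex I, 1 for complex III, 2 for complex IV and 1 for complex V. The mitochondrial genes mt-Nd4l, mt-Co3 and mt-Atp8, protein coding in the GENCODE annotation, are not in that table. The name patterns also took in 8 complex I assembly factors (Ndufaf genes) and Atp5s, which were kept apart from the subunits.

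Expression was measured by RNA sequencing in bone marrow cells of mice aged 10 weeks that were wild type (WT) or null for Helios (KO), the transcription factor encoded by Ikzf2. All 6 groups were sorted as cells without lineage markers that carry Sca1 and c-Kit. LT-HSCs, the long-term stem cells, were CD48-CD150+, MPP3, the myeloid-biased multipotent progenitors, were CD48+CD150-Flt3-, and MPP4, the lymphoid-biased ones, were CD48+CD150-Flt3+. Each population came from 3 WT and 3 KO mice, giving 18 libraries, and neither the null allele nor the background strain is described in the labels.

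Oxidative phosphorylation makes ATP at the inner mitochondrial membrane. Complexes I and II pass electrons from NADH and succinate to ubiquinone, complex III passes them on to cytochrome c, complex IV reduces oxygen, and complex V uses the proton gradient to make ATP. Most subunits are encoded in the nucleus, while a small set of core proteins is encoded on mitochondrial DNA, except in complex II, which is wholly nuclear. Haematopoietic stem cells are known for a largely glycolytic metabolism at rest, and progenitors for greater use of mitochondrial respiration.

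Libraries held 21053050 to 45410959 counts and 17362 to 20272 genes with a read. Nuclear subunit genes took 0.846% to 1.34% of a library's reads. Mitochondrial subunit genes took 0.306% to 0.369% in the 6 libraries numbered 1 and 0.392% to 0.670% in the 12 libraries numbered 2 and 3. Levels are given as CPM, the count of a gene scaled to the TMM-adjusted size of its library. Ikzf2 stood at 27.1 to 65.6 CPM in WT libraries and 3.55 to 23.95 CPM in KO libraries. The 8 stem cell markers summed to 2260 to 2620 CPM in LT-HSCs, 442 to 660 in MPP3 and 171 to 462 in MPP4. Transcripts of 10 mature neutrophil markers summed to 74.7 and 235 CPM in WT LT-HSC libraries 2 and 3, against 2.83 to 8.50 in the other 4 LT-HSC libraries. The same markers summed to 12.1 to 58.5 CPM in the MPP3 libraries and 5.40 to 28.0 CPM in the MPP4 libraries. Markers of plasma and B cells, 8 in number, summed to 3500, 3840 and 2980 CPM in MPP3 WT libraries 1 and 2 and KO library 1, against 154 to 261 in the other 3 MPP3 libraries, 778 to 1500 in the 6 MPP4 libraries and 49.7 to 70.3 in LT-HSCs. Counts or medians without WT LT-HSC libraries 2 and 3, and without the 3 high MPP3 libraries, stand beside the results concerned. Each run left 1 WT library in its group, LT-HSC library 1 or MPP3 library 3.

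Levels of different genes are compared only per kilobase. Divided by the deposited median transcript length, Atp5b, the catalytic beta subunit of ATP synthase, had the highest level of the nuclear subunits, at 2753 CPM per kilobase averaged over the 6 groups, and it also led at 1103 when the longest coding transcript was used. The leading genes of the other complexes were Ndufa4 (398 or 305 CPM per kilobase by the 2 lengths), Sdha (1650 or 296), Uqcrc1 (910 or 320) and Cox4i1 (426 or 339). The median member of complex II stood at 199 CPM per kilobase by both lengths, that of complex IV at 51.6 or 47.6. Ndufa4 is grouped here with complex I by its name, although its protein is known as a subunit of complex IV. Of the 102 genes, 96 passed the filter on low counts and were tested. The 6 that did not were mt-Co2, mt-Atp6, Ndufa4l2, Cox7a1, Cox7b2 and Cox8b, each at or below 0.363 CPM in every library.

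In WT mice, nuclear subunit transcripts of all 5 complexes were higher in both progenitor populations than in LT-HSCs. MPP3 had 57 of 96 members higher than LT-HSCs (59.4%, against 9.68% of all 16325 genes tested) and 0 lower (7.66% of all genes). MPP4 had 58 higher (60.4%, against 14.1%) and 1 lower (13.1%). These counts are from edgeR's quasi-likelihood test at a Benjamini-Hochberg adjusted p under 0.05, and 52 members were higher in both. All of the called members were nuclear subunits, and 0 of 8 tested assembly factors and 0 of 8 tested mitochondrial genes passed; at an unadjusted p under 0.05 there were 2 assembly factors and 0 mitochondrial genes in each comparison. Beside these differences, 6 markers of T and NK cells summed to 27.8 to 39.0 CPM in LT-HSCs, 274 to 351 in MPP3 and 157 to 190 in MPP4. The 6 macrophage markers summed to 13.0 to 49.6, 54.5 to 146 and 96.4 to 239 CPM, and 8 erythroid markers to 9.03 to 34.3, 94.8 to 129 and 4.45 to 26.0 CPM. The part of these markers, and of those of plasma and B cells, in the results was not tested. Differences in bulk samples cannot tell fewer cells of a type from less RNA per cell.

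Summed over the 83 nuclear genes, WT LT-HSCs had 8266, 8167 and 8512 CPM, MPP3 11280, 10900 and 12480 CPM, and MPP4 11360, 11850 and 12200 CPM. The LT-HSC libraries were below every progenitor library, and MPP3 and MPP4 overlapped. The median log2 fold change of the 79 tested nuclear subunits was 0.58 in MPP3 and 0.57 in MPP4 against LT-HSCs, beside medians of 0.00 and -0.01 over all genes. Other protein-coding genes with transcripts under 1000 bases, the size class of most subunits, had medians of 0.13 in both. Between libraries of the same number the median ratio of nuclear subunits on a log2(CPM + 0.5) scale was 0.50, 0.41 and 0.72 for MPP3 and 0.53, 0.54 and 0.60 for MPP4.

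**Figure D1:**
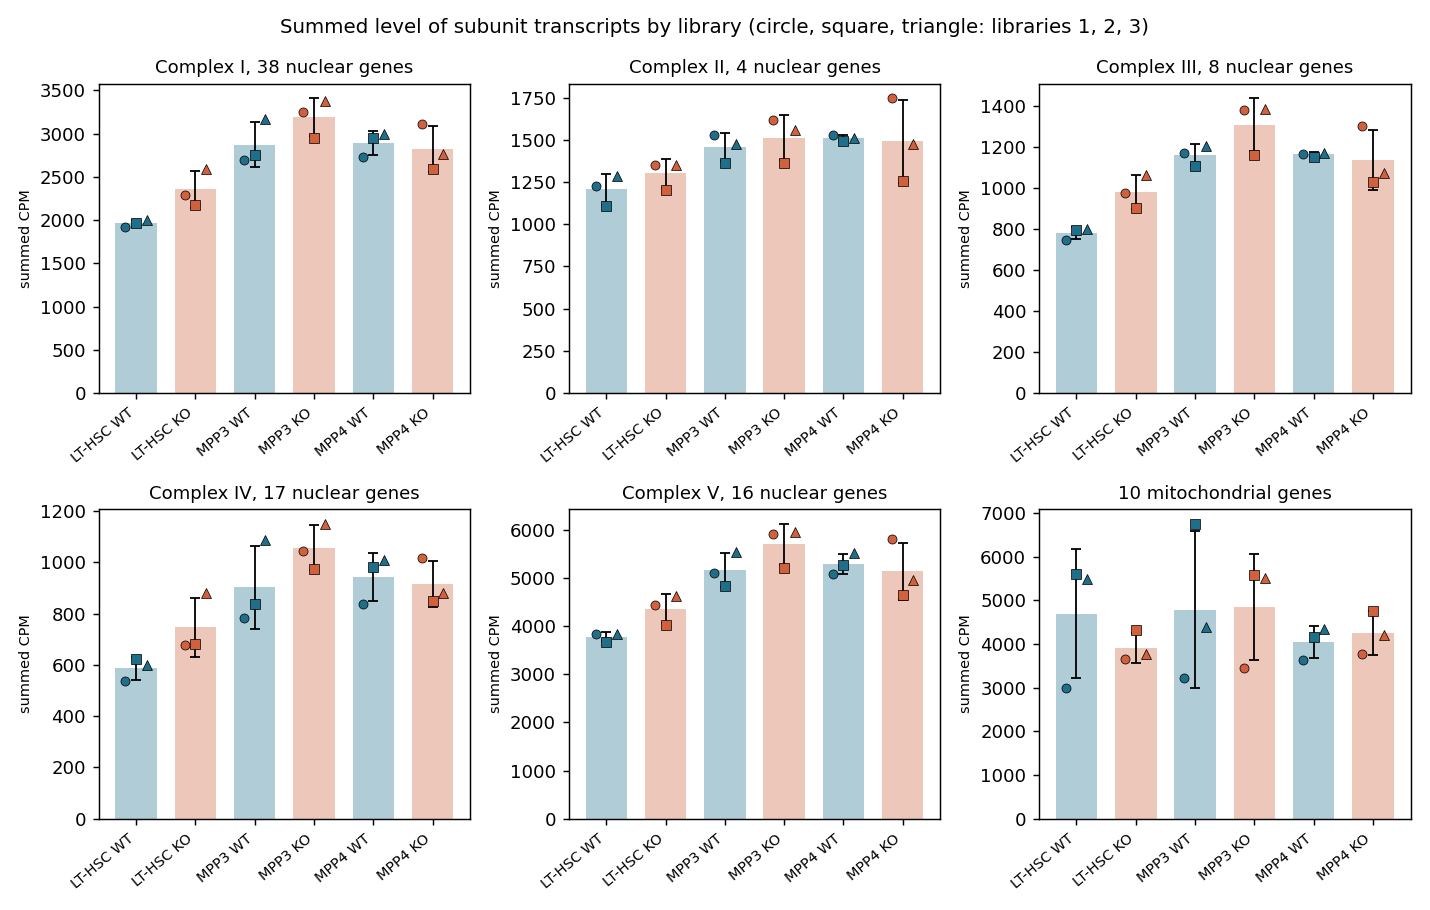
Summed CPM of the nuclear subunit genes of each complex and of the 10 mitochondrial genes (vertical axes, from 0) in the 6 groups; points are libraries, bars are means and whiskers are SD (n = 3). For each of the 5 complexes every WT LT-HSC library lies below every WT progenitor library, while the mitochondrial sum runs from 2988 to 6748 CPM with overlapping groups.

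Complex I, which oxidises NADH, had 26 of 37 tested nuclear subunits higher in MPP3 and 26 in MPP4, with medians of 0.55 and 0.52. Of the 7 nuclear subunits of its catalytic core, 6 passed in MPP3 and 5 in MPP4. Ndufs1, the largest iron-sulfur subunit, did not pass in either, with log2 fold changes of 0.18 ± 0.10 (SE) and 0.23 ± 0.10.

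Ndufa4 had the largest difference of the members that averaged at least 5 CPM in both groups compared. It stood at 81.1, 86.0 and 86.7 CPM in WT LT-HSCs, at 198, 203 and 254 in MPP3 and at 217, 270.2 and 261 in MPP4. Every progenitor library lay far above every stem cell library, 2.58-fold in MPP3 (log2 1.37 ± 0.14, adjusted p = 7.2e-06) and 2.95-fold in MPP4 (1.56 ± 0.14, adjusted p = 5.7e-07). The KO mice showed it too, at 102, 98.8 and 128 CPM in LT-HSCs, 211, 208 and 278 in MPP3 and 233, 199.9 and 237 in MPP4.

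Complex II, succinate dehydrogenase, had 3 of its 4 subunits higher in both progenitors. Sdhb, the iron-sulfur subunit, had 125, 132 and 152 CPM in WT LT-HSCs, 201, 203 and 244 in MPP3 and 246, 279.6 and 277 in MPP4. Its log2 fold changes against LT-HSCs were 0.66 ± 0.12 (adjusted p = 0.0016) and 0.97 ± 0.12 (adjusted p = 2.2e-05). The flavoprotein Sdha, the catalytic partner of Sdhb, stood at 831, 748 and 862 CPM in WT LT-HSCs and at 828 to 941 in the progenitors, overlapping, with log2 differences of 0.09 ± 0.10 and 0.11 ± 0.10 that did not pass.

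Complex III had all 8 of its nuclear members higher in both progenitors, with medians of 0.63 and 0.61. Uqcrfs1, the Rieske iron-sulfur protein, stood at 84.3, 89.4 and 106 CPM in WT LT-HSCs, 149, 150.3 and 160.5 in MPP3 and 163, 156 and 164 in MPP4. These groups did not overlap, with log2 fold changes of 0.72 ± 0.11 (adjusted p = 0.00022) and 0.79 ± 0.11 (adjusted p = 3.3e-05). Uqcrc1, a core protein facing the matrix, was at 370 to 378 CPM in WT LT-HSCs and at 531 to 624 in WT progenitors. Cyc1, the cytochrome c1 of this complex, whose name lies outside the patterns, rose by 0.45 ± 0.11 and 0.44 ± 0.11.

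Complex IV, cytochrome c oxidase, had 10 of 14 tested nuclear subunits higher in MPP3 and 11 in MPP4. Cox5a, a structural subunit on the matrix side, had 18.8, 27.4 and 29.5 CPM in WT LT-HSCs, 47.9, 48.5 and 62.9 in MPP3 and 48.0, 54.4 and 62.9 in MPP4. That is 2.10-fold (log2 1.07 ± 0.18, adjusted p = 0.00068) and 2.18-fold (1.12 ± 0.18, adjusted p = 0.00019). Cox7a2 rose by 0.82 ± 0.18 in MPP3 and 0.75 ± 0.18 in MPP4, and in MPP4 Cox6c and Cox7b rose by 0.85 ± 0.16 and 0.82 ± 0.19. Cox7c, at 3.82 to 6.51 CPM in every library, did not pass in either.

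Complex V, ATP synthase, had 10 of 16 members higher in each progenitor population, with medians of 0.58 in both. Atp5b stood at 1718, 1552 and 1597 CPM in WT LT-HSCs, 2291, 2044 and 2298 in MPP3 and 2353, 2267 and 2354 in MPP4, without overlap. The log2 changes of the catalytic-head subunits Atp5b and Atp5a1 were 0.45 ± 0.10 and 0.34 ± 0.07 in MPP3 and 0.52 ± 0.10 and 0.33 ± 0.07 in MPP4. Atp5c1, the rotating gamma subunit, rose by 0.58 ± 0.11 and 0.66 ± 0.11. The c subunit of the rotor ring is encoded by Atp5g1, Atp5g2 and Atp5g3, and Atp5g3 gave 93.8% to 96.2% of their reads in the group means. Atp5g3 rose by 0.71 ± 0.14 in MPP3 and 0.66 ± 0.14 in MPP4.

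**Figure D2:**
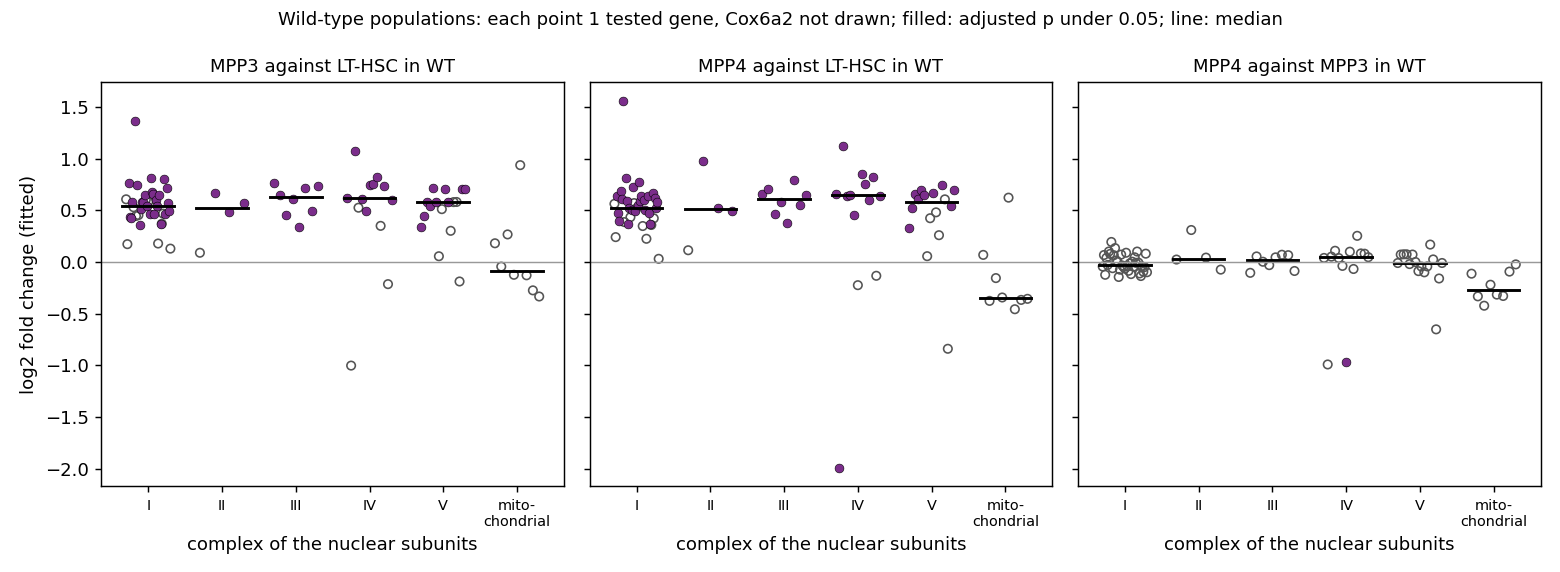
Fitted log2 fold changes of the tested nuclear subunits by complex and of the 8 tested mitochondrial genes in 3 comparisons of WT populations; each point is a gene, filled at an adjusted p under 0.05, and lines are medians, with Cox6a2 left out of the drawing because LT-HSCs had almost no reads of it. Most nuclear subunits lie above 0 against LT-HSCs, with medians of 0.52 to 0.65, and around 0 between MPP4 and MPP3.

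The counts depended on single libraries, while 0 members were lower in MPP3 than in LT-HSCs under any alternative run. Without WT LT-HSC library 1 the MPP3 count was 36, and without MPP3 WT library 3 it was 23. Shares of all genes called are not given for these refits, so the lower counts cannot be read as particular to the members. Leaving out WT LT-HSC libraries 2 and 3, the highest of the LT-HSC libraries in neutrophil transcripts, left 1 WT LT-HSC library. The median of nuclear subunits in MPP4 was then 0.63. The median of nuclear subunits was 0.78 in MPP3 against LT-HSCs without MPP3 WT 1, WT 2 and KO 1, the libraries with plasma and B cell transcripts. That run left WT MPP3 library 3 alone, which had the highest nuclear subunit sum of the WT MPP3 libraries.

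Between the 2 WT progenitors, 1 member was higher in MPP4, Cox6a2 (2.19% of all genes were higher), and 1 was lower, Cox6b2 (2.62%). The median difference of nuclear subunits was 0.00 on the log2 scale. It was -0.19 without MPP3 WT 1, WT 2 and KO 1, the libraries with plasma and B cell transcripts. That run left 1 WT MPP3 library. Without those 3 MPP3 libraries, 0 were higher and 0 lower.

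In KO mice, which are separate animals, the same comparisons gave 27 members higher in MPP3 than in LT-HSCs (28.1%, against 6.85% of all genes) and 0 lower (6.82%). The count was 8 without LT-HSC KO library 2 and 12 without MPP3 KO library 3. It was 14 without either LT-HSC KO library 1 or MPP3 KO library 1. Without the MPP3 libraries with plasma and B cell transcripts, 11 passed. The voom test of limma and a fit with the library number as a block each gave 47, and both used that number. By edgeR's test, MPP4 had 9 members higher than LT-HSCs (9.38%, against 9.57%) and 1 lower, Cox6b2 (10.5%). That share of higher members was no greater than that of all genes. Leaving out MPP4 KO library 1 or LT-HSC KO library 2 gave 4 higher, while DESeq2 gave 14 and voom and the block each gave 16. Shares of all genes called in those runs are not given, so the comparison with all genes holds for edgeR's test alone. Of the calls in WT, 26 of 57 for MPP3 and 8 of 59 for MPP4 were also calls in KO. In KO they made up 26 of 27 and 8 of 10. All 57 and 59 WT calls had the same sign in KO. Such shares were not taken over all genes called, so these cannot be read as particular to the members.

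The median nuclear subunit in KO mice was 0.42 in MPP3 and 0.21 in MPP4 against LT-HSCs. By library number, MPP3 gave 0.52, 0.39 and 0.35 and MPP4 gave 0.43, 0.15 and 0.01, the last being the libraries numbered 3. The genes called in both genotypes included Ndufa4, Sdhb, Cox5a, Uqcrfs1, Ndufb8 and Atp5c1. Ndufaf6, a complex I assembly factor, was called in KO mice in both comparisons (0.91 ± 0.26 and 0.76 ± 0.26) and did not pass in WT mice (0.42 ± 0.26 and 0.62 ± 0.26). The KO effect on it did not differ past the test between MPP3 and LT-HSCs (0.49 ± 0.36) or between MPP4 and LT-HSCs (0.13 ± 0.36). Its calls were lost in several runs, given here with edgeR's adjusted p. In MPP3 this was without library 1 or 2 of LT-HSC KO or library 1 or 3 of MPP3 KO (0.0652 to 0.133). It was also so with libraries numbered 2 and 3 alone (0.1785). In MPP4 this was without library 1 or 2 of LT-HSC KO or library 1 or 3 of MPP4 KO (0.101 to 0.199). The same held for libraries numbered 2 and 3 alone (0.2907). DESeq2 size factors, library totals, no filter or the groups compared alone also lost the MPP4 call (0.0524 to 0.08425). In KO mice MPP4 against MPP3 gave the same 2 genes as in WT, Cox6a2 higher (2.76% of all genes) and Cox6b2 lower (2.68%). All 3 MPP4 KO libraries lay below all 3 MPP3 KO libraries for 24 of 96 members (10.8% of all genes), and the median was -0.19.

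A few complex IV genes exist as pairs of isoforms, 1 used widely and 1 in restricted tissues, and these followed their own patterns. Cox6a2, known as the heart and skeletal muscle form of subunit 6A, was found almost only in MPP4. It lies on chromosome 7 at 128205435 to 128206387 (GRCm38). Its level was 17.6, 13.2 and 9.30 CPM in WT MPP4 and 23.2, 4.88 and 6.08 in KO MPP4. In MPP3 it was 0 to 0.394 CPM and in LT-HSCs 0 to 0.0358 CPM. All 6 MPP4 libraries lay above all 12 others.

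The 3 WT MPP4 libraries held 1127 reads of Cox6a2, against 24 in WT MPP3 and 1 in WT LT-HSCs. Per scaled library this is 42.7 times the MPP3 level (95% exact interval 28.5 to 66.9) and 1280.0 times the LT-HSC level (230.0 to 50700.0), intervals that cover counting error only. In KO mice 877 reads stood against 9 in MPP3 and 2 in LT-HSCs, ratios of 109 (57.0 to 238) and 466 (129 to 3850.0). The adjusted p of MPP4 against LT-HSCs by edgeR's test was 4.1e-06 in WT and 9.0e-06 in KO. The filter on low counts kept the gene only through the MPP4 libraries, where it is high. These p-values therefore add no separate support. WT MPP3 also passed against LT-HSCs on its 24 reads against 1 (adjusted p = 0.0114), a call lost with voom (adjusted p = 0.176), with libraries numbered 2 and 3 alone (0.0609), without LT-HSC WT 2 and 3 (0.12) and without MPP3 WT 1, WT 2 and KO 1 (0.0637). Its share of the reads of both Cox6a genes was 12.9% in WT MPP4 and 10.2% in KO MPP4, and at most 0.353% in the other group means. The gene overlaps 70 exon bases of Itgad on the opposite strand, and Itgad stood at 0.856 to 3.26 CPM in MPP4 and at 0 to 10.2 CPM elsewhere.

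Cox6b2, known as a testis form of subunit 6B, was lower in MPP4 than in MPP3. It stood at 7.37, 6.67 and 6.28 CPM in WT LT-HSCs, 9.53, 12.3 and 12.1 in MPP3 and 4.76, 6.96 and 5.67 in MPP4. WT MPP4 overlapped WT LT-HSCs, and WT MPP3 was called higher than WT LT-HSCs by edgeR's test. That MPP3 call was lost without library 2 or 3 of LT-HSC WT or of MPP3 WT, at adjusted p of 0.070 to 0.092. The same call was also lost with no filter (0.131) and with the groups compared alone (0.09125). In KO mice it stood at 9.68, 10.6 and 11.3 in LT-HSCs, 15.0, 11.5 and 16.02 in MPP3 and 6.06, 6.73 and 5.88 in MPP4. MPP4 and MPP3 did not overlap in either genotype, with log2 differences of -0.96 ± 0.21 (adjusted p = 0.0118) and -1.19 ± 0.21 (adjusted p = 0.00248). The WT call was lost without MPP4 WT library 1 or 3 or MPP3 WT library 2 or 3 (adjusted p 0.0505 to 0.0814). No filter, the groups compared alone and libraries numbered 2 and 3 alone also lost it (0.0666 to 0.085). MPP4 was called lower than LT-HSCs in KO by edgeR's test (-0.76 ± 0.21, adjusted p = 0.0176). That call was lost without MPP4 KO library 1 or 3 or LT-HSC KO library 2 or 3 (adjusted p 0.0522 to 0.0689). No filter, the groups compared alone and libraries numbered 2 and 3 alone lost it too (0.0619 to 0.0993). Its widely used partner Cox6b1 was at 80.3 to 87.8 CPM in WT LT-HSCs and 99.2 to 148 CPM in the WT progenitors.

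Cox4i2, the form of subunit 4 known to be induced by low oxygen, was the 1 member lower in WT MPP4 than in LT-HSCs. Its level was low throughout, at 2.34, 1.42 and 3.64 CPM in WT LT-HSCs and 0.149, 0.795 and 0.909 CPM in WT MPP4. The groups did not overlap (-1.99 ± 0.63, adjusted p = 0.0272 by edgeR's test). But the call was lost without MPP4 WT library 1 or 2 or LT-HSC WT library 3, at adjusted p of 0.0503 to 0.104. It was also lost with no filter, the groups compared alone or libraries numbered 2 and 3 alone (0.0742 to 0.1142). In KO mice the difference was -1.68 ± 0.63 and did not pass (adjusted p = 0.0706). Cox4i1 gave 98.6% to 99.8% of the reads of the pair in the group means. Ndufa4l2, Cox7a1, Cox7b2 and Cox8b, the restricted partners of further pairs, had too few reads to test.

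**Figure D3:**
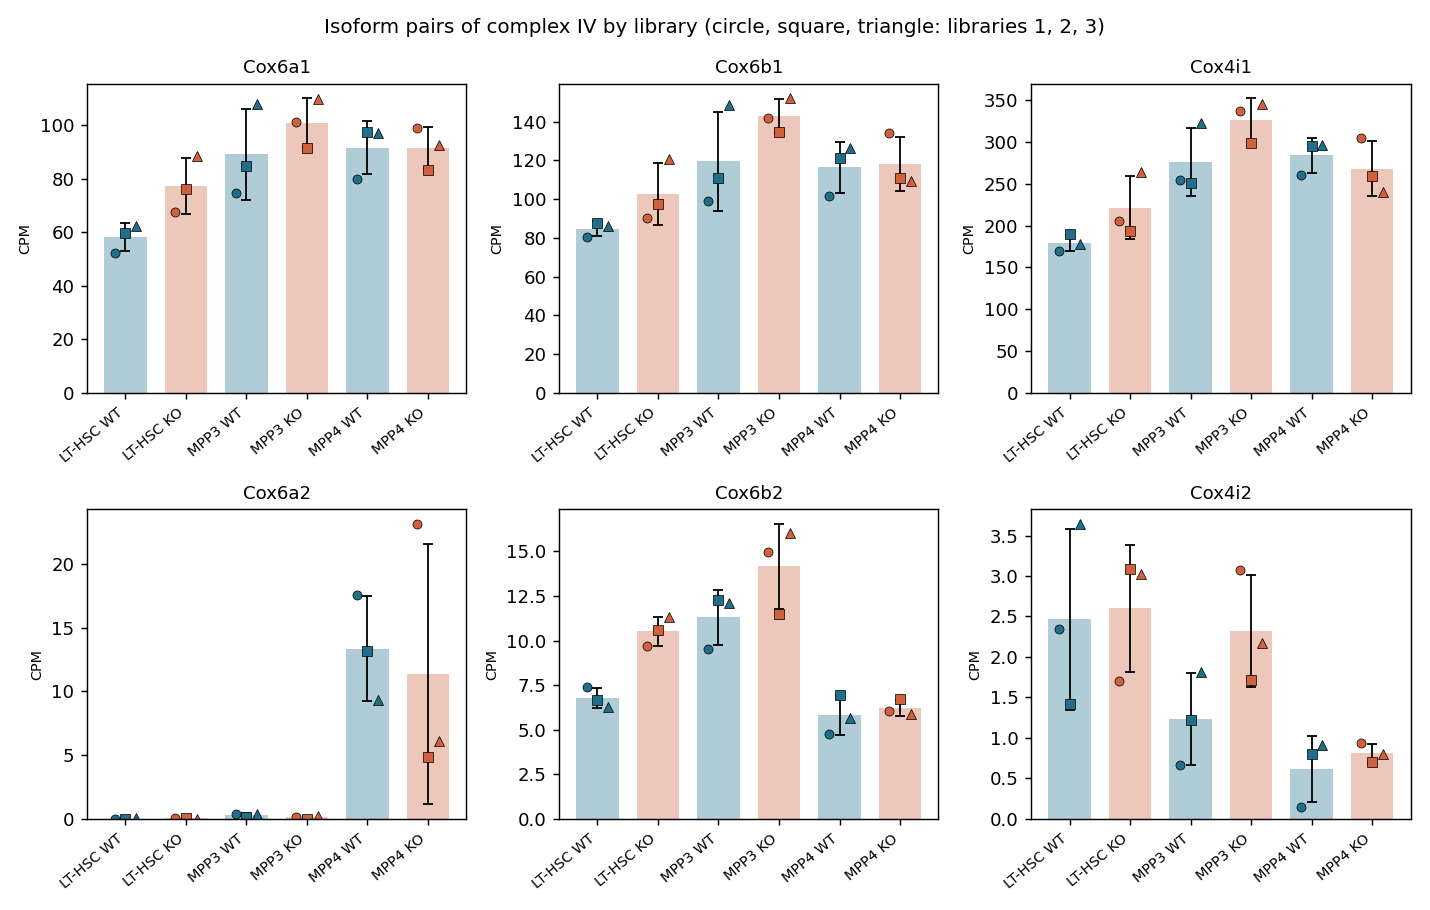
CPM of 3 isoform pairs of complex IV (vertical axes, from 0) in the 6 groups; points are libraries, bars are means and whiskers are SD (n = 3). Cox6a1, Cox6b1 and Cox4i1 are lowest in WT LT-HSCs, Cox6a2 is near 0 outside MPP4, and Cox6b2 is lower in MPP4 than in MPP3.

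Of the 8 tested mitochondrially encoded subunits, 0 passed in any comparison by edgeR's test, also at an unadjusted p under 0.05, and the median log2 differences from LT-HSCs in WT were -0.08 in MPP3 and -0.35 in MPP4. mt-Cytb, the cytochrome b of complex III, stood at 1015, 2080 and 1859 CPM in WT LT-HSCs, 1051, 2357 and 1397 in MPP3 and 1099, 1343 and 1377 in MPP4. mt-Co1, the catalytic subunit of complex IV, stood at 787, 1266 and 1564, then 947, 1680 and 1475, then 1071, 1323 and 1401 CPM. Both were lowest in the library numbered 1 of each of these groups, and the groups overlapped. The standard errors of mt-Cytb and mt-Co1 were 0.26 to 0.29 on the log2 scale, against 0.11 for Uqcrfs1. Without WT LT-HSC libraries 2 and 3 the mitochondrial medians were 0.60 in MPP3 and 0.33 in MPP4, and without MPP3 WT library 2 that of MPP3 was -0.50, so no direction can be given for them.

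Of the 10 mitochondrial genes in the count table, the 3 whose sequence recurs almost wholly in other genes had the lowest levels. In the GENCODE M21 transcripts (GRCm38), 100% of the 50-base windows of mt-Co2 and 99.5% of those of mt-Atp6 were also found in another gene. These were mainly pseudogenes on chromosome 1 (Gm28661 and Gm10925). Over all 18 libraries mt-Co2 and mt-Atp6 had 1 read each, and Gm28661 and Gm10925 had 14 and 12. mt-Nd3, at 98.0%, had 3.41 CPM per kilobase, while mt-Co1 at 51.1% and mt-Nd4 at 62.2% had 797 and 169. mt-Cytb, mt-Nd1 and mt-Nd6 shared no window. The starts of 4 of these transcripts are shown because they bear on which mitochondrial genes the counts can report, with capitals for bases inside a window found in a nuclear gene (GENCODE, mitochondrial chromosome).
mt-Atp6: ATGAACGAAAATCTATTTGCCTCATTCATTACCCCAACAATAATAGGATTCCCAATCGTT
mt-Co2: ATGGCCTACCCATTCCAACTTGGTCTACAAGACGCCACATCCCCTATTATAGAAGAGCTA
mt-Co1: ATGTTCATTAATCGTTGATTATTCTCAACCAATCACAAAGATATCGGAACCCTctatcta
mt-Cytb: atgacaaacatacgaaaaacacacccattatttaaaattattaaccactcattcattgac
The first 60 bases of mt-Atp6 and mt-Co2 are wholly in capitals, mt-Co1 in part and mt-Cytb not at all. No source used here says how reads matching several places were counted, so its part in these levels was not tested, and the levels of mt-Co2, mt-Atp6, mt-Nd3, mt-Nd4 and mt-Co1 are uncertain.

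**Figure D4:**
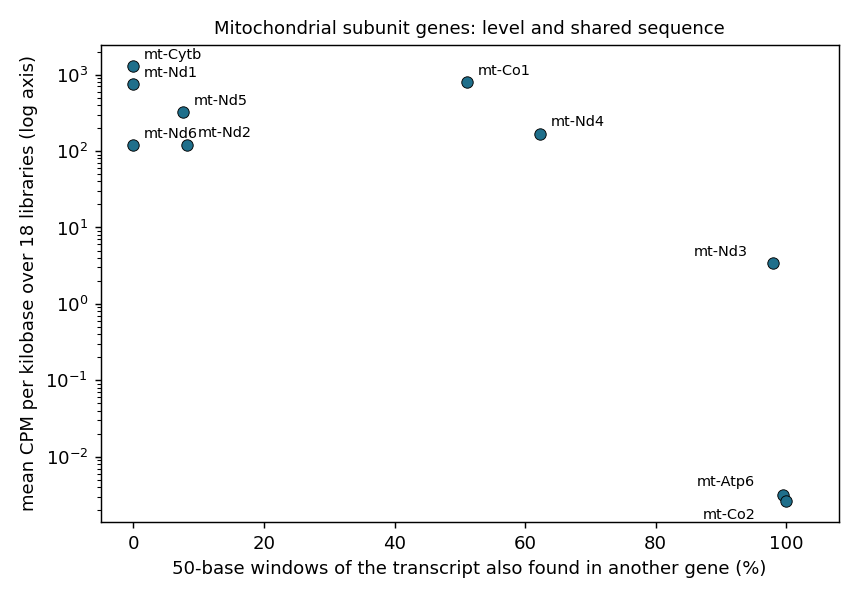
Mean CPM per kilobase over the 18 libraries (vertical axis, log scale) of the 10 mitochondrial genes against the percentage of their 50-base windows that another gene also holds; each point is a gene. The 3 genes at 98.0% or more lie at or below 3.41 CPM per kilobase, and the other 7 above 100.

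Among nuclear subunits, 10 of 83 had at least 20% of their windows in another gene, with Atp5l at 68.5%, Atp5h at 47.9% and Uqcrb at 43.2%, and their levels are uncertain for the same reason. Their medians in WT against LT-HSCs were 0.46 in MPP3 and 0.48 in MPP4. The remaining 69 tested subunits had medians of 0.58 and 0.59.

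Loss of Helios changed 0 members past the test in any population, among few genes changed in all. The shares of all genes called were 0.0613% in LT-HSCs, 0.00613% in MPP3 and 0.0123% in MPP4 by edgeR's test. The voom test of limma also called 0 members in each population. DESeq2 called 1 in LT-HSCs, Uqcrfs1, and 0 in MPP3 and MPP4. In the authors' deposited table Uqcrfs1 was likewise the 1 member with an adjusted p under 0.05 in LT-HSCs (0.0406), with 0 in MPP3 and MPP4.

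In LT-HSCs the nuclear subunits nevertheless lay mostly above WT. At an unadjusted p under 0.05, 39 of 96 members were higher (40.6%, against 6.35% of all genes) and 0 lower (against 4.88%). All 3 KO libraries lay above all 3 WT libraries for 42 of 96 members (9.15% of all genes) and below them for 0. Of the 79 nuclear subunits 76 had a positive difference, with a median of 0.33 beside 0.01 for all genes and 0.08 for other short protein-coding genes. By complex the medians were 0.29 in I, 0.22 in II, 0.38 in III, 0.38 in IV and 0.33 in V. Of the 8 mitochondrial genes 1 had a positive difference, with a median of -0.27, which was 0.41 without WT libraries 2 and 3.

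The members with the smallest p in KO LT-HSCs were Uqcrfs1, Ndufa2, an accessory subunit of complex I, and Atp5mpl, a small membrane subunit of ATP synthase. Uqcrfs1 stood at 84.3, 89.4 and 106 CPM in WT and 124, 119.5 and 122 in KO (0.39 ± 0.10, adjusted p = 0.227 by edgeR). Ndufa2 stood at 23.4, 28.1 and 30.7 in WT and 39.0, 36.7 and 45.2 in KO (0.56 ± 0.16, adjusted p = 0.255). Atp5mpl stood at 25.2, 25.2 and 25.2 in WT and 35.3, 35.7 and 40.5 in KO (0.56 ± 0.16, adjusted p = 0.255). None of the 3 genes overlapped between genotypes, but none passed after adjustment.

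Single libraries moved the unadjusted count in LT-HSCs: it was 12 without KO library 3 and 23 without WT library 1, and 24 without WT libraries 2 and 3, which carried neutrophil transcripts. By library number, the median KO to WT ratio of nuclear subunits was 0.33, 0.19 and 0.45. Megakaryocyte markers, 5 in number, also moved with genotype in LT-HSCs, at 379, 269 and 425 CPM in WT and 811, 426 and 565 CPM in KO, without overlap. The part of the neutrophil and megakaryocyte markers in the shift was not tested.

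In MPP3, 1 member was higher at an unadjusted p under 0.05 (1.68% of all genes) and 0 lower (2.92%), and the median of nuclear subunits was 0.19. The count was 26 without MPP3 WT library 3, 8 without KO library 2, 3 without WT library 2 and 0 without WT library 1 or KO library 3. That median was -0.01 without MPP3 WT 1, WT 2 and KO 1, the libraries with plasma and B cell transcripts. Only WT library 3 was then left against KO libraries 2 and 3. The smallest p values belonged to Ndufa2 (0.38 ± 0.16), Sdhc (0.23 ± 0.11) and Ndufc2 (0.24 ± 0.12), each with an adjusted p of 1 by edgeR. In MPP4, 0 members were higher (2.32% of all genes) and 0 lower (1.68%), with a median of -0.02. There Ndufb5 (-0.20 ± 0.14), Cox7a2l (-0.22 ± 0.16) and the assembly factor Ndufaf3 (0.22 ± 0.18) had the smallest p values, each with an adjusted p of 1. By number, the MPP4 medians were 0.25, -0.17 and -0.14, so the libraries numbered 1 went the other way from the other two pairs.

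**Figure D5:**
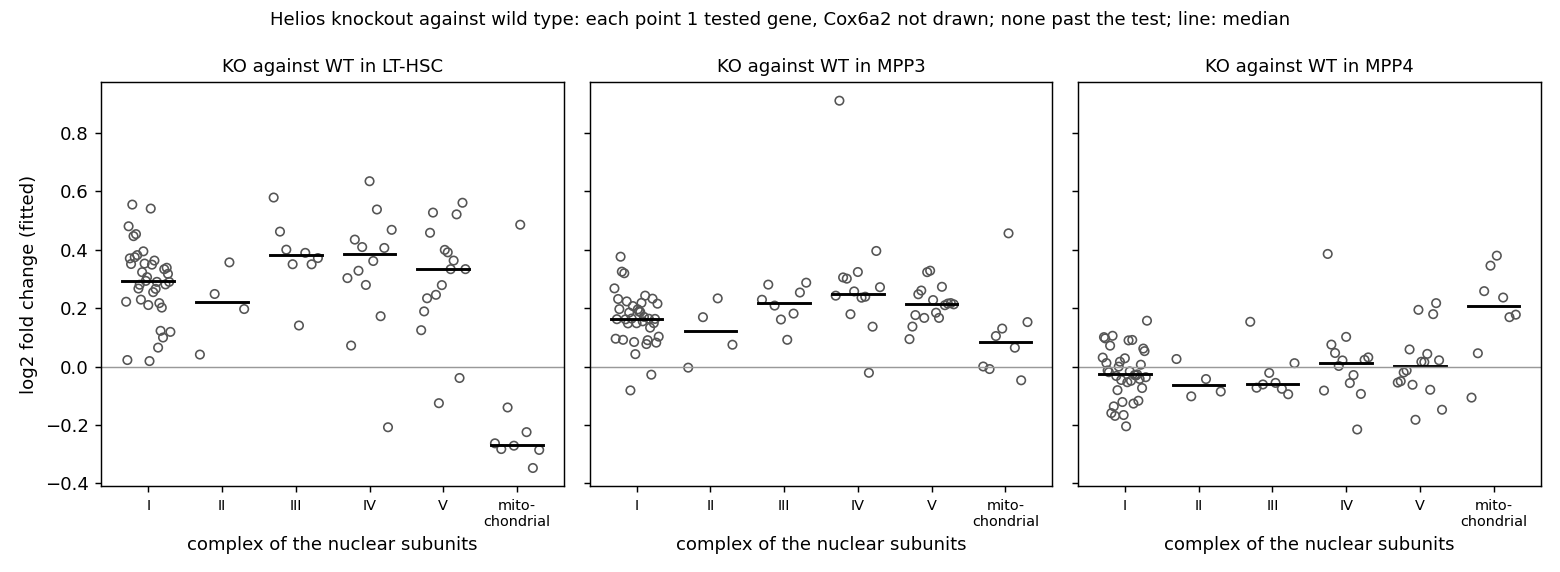
Fitted log2 fold changes of KO against WT for the tested nuclear subunits by complex and the 8 tested mitochondrial genes in 3 populations; each point is a gene, open because none passed, and lines are medians, with Cox6a2 left out of the drawing. The nuclear points lie mostly above 0 in LT-HSCs (median 0.33), less far above in MPP3 (0.19) and around 0 in MPP4 (-0.02), and the mitochondrial points lie mostly below 0 in LT-HSCs.

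Whether the KO effect differed between populations was tested directly. No member passed in any of the 3 comparisons of effects, nor did any gene (0.0%). At an unadjusted p under 0.05, the effect in MPP4 was below that in LT-HSCs for 15 of 96 members and above it for 0 (6.65% of all genes in either direction), with Uqcrfs1 first (-0.47 ± 0.15, adjusted p = 0.653) and Ndufa4 next (-0.53 ± 0.20, adjusted p = 0.703). The counts were 0 for MPP3 against LT-HSC (3.69%) and 1, Ndufc2, for MPP4 against MPP3 (3.23%). DESeq2 and voom called 0 in each. A different effect of Helios loss between the populations is therefore not shown for these genes.

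Promoter windows, 250 bases before to 50 after a start site, were found in the RefSeq table (GRCm38.p6) for 67 of the 83 nuclear subunits. GCGCATGC, the core of the site bound by Nrf1, was present on either strand in 10 of 67 (14.9%), against 5.82% of tested protein-coding genes and 3.05% of all genes with a window. CCGGAAG, the core bound by ETS factors such as Gabpa, was present in 16 of 67 (23.9%), against 19.2% and 9.93%. The promoters of Sdhb, Cox6a1 and Ndufa4 are shown because these genes rose in both progenitors and differ in the motifs they hold, marked in capitals. They lie at chr4:140961021-140961320 (plus strand), chr5:115348909-115349208 (minus strand) and chr6:11907401-11907700 (minus strand).
Sdhb: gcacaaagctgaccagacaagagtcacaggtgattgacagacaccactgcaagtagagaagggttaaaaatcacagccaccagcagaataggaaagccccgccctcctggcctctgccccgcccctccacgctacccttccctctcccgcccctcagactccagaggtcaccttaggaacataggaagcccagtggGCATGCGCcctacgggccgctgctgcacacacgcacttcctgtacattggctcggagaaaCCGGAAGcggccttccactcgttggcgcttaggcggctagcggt
Cox6a1: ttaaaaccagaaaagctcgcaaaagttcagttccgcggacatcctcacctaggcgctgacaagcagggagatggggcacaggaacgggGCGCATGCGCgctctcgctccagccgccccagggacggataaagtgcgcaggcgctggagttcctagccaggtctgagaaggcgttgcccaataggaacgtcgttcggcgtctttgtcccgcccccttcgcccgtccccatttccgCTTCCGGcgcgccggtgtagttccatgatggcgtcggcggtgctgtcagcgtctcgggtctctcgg
Ndufa4: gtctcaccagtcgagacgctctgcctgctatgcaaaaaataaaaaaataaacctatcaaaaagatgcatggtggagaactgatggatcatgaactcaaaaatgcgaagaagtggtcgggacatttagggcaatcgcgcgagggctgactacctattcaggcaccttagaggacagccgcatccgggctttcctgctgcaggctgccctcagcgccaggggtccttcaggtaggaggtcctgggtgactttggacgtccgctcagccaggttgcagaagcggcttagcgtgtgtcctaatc
The Sdhb window holds 1 Nrf1 core and 1 ETS core, that of Cox6a1 holds 2 overlapping matches to the Nrf1 core and 1 ETS core, and that of Ndufa4, with the larger change, holds neither. A match is a description of the letters and not evidence of binding.

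Other mitochondrial genes were read from lists, against 9.68% of all genes higher and 7.66% lower in WT MPP3 and 14.1% higher and 13.1% lower in WT MPP4. Mitochondrial ribosomal proteins, which translate the mitochondrial subunits, had 25 of 77 tested genes higher in WT MPP3 (32.5%) and 34 in MPP4 (44.2%), with 0 lower and medians of 0.38 and 0.43. Mrpl36, of the large subunit, rose by 0.82 ± 0.15 and 0.75 ± 0.14. Carriers and uncoupling proteins had 7 of 12 higher in each (58.3%), among them Slc25a5, the ADP/ATP carrier that feeds complex V (0.81 ± 0.16 in both), Ucp2 (0.69 ± 0.08 and 0.84 ± 0.08) and Mpc1 of the pyruvate carrier (0.75 ± 0.20 and 0.71 ± 0.20). The assembly factors outside the name patterns had 2 of 38 higher in MPP3 (5.26%) and 3 in MPP4 (7.89%), shares below those of all genes, with medians of 0.21 and 0.19.

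The tricarboxylic acid cycle and pyruvate dehydrogenase had 5 of 17 higher (29.4%) and 0 lower in each, with Suclg1 (0.66 ± 0.10), Idh3g (0.59 ± 0.09) and Fh1 (0.55 ± 0.17) leading in MPP4. Of 30 tested entries for 29 glycolysis genes, Aldoa having 2 entries, 5 were higher (16.7%) and 4 lower (13.3%) in MPP3, and 5 higher (16.7%) and 7 lower (23.3%) in MPP4, where the share higher was near that of all genes. Hk3, a hexokinase, rose by 2.59 ± 0.33 in MPP3 and 1.53 ± 0.32 in MPP4. Pdk4, the kinase that restrains pyruvate dehydrogenase, averaged 5.65 CPM in WT LT-HSCs and had 0 reads in WT MPP4. That is at least 144-fold lower against a floor of 3 reads over the group. Electron carriers had 1 of 15 higher in each (6.67%, below all genes), Cyc1, and 1 lower, Coq8a of ubiquinone synthesis (-1.28 ± 0.09 and -1.08 ± 0.09).

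Of the machinery for mitochondrial DNA and RNA, 1 of 29 was higher and 1 lower in MPP3 (3.45% each), and 2 were higher (6.90%) and 0 lower in MPP4, shares below those of all genes. Ssbp1, which binds single-stranded mitochondrial DNA, rose by 0.68 ± 0.17 in MPP3 and 0.99 ± 0.17 in MPP4. Of 11 regulators of mitochondrial biogenesis, 1 was higher (9.09%) and 2 lower (18.2%) in MPP3, and 2 higher and 2 lower (18.2% each) in MPP4. Among them Myc rose (0.67 ± 0.16 and 0.74 ± 0.16) and in MPP4 Mycn fell by 1.91 ± 0.24 on the log2 scale. Of 18 hypoxia genes, 3 were higher (16.7%) and 2 lower (11.1%) in MPP3. In MPP4 5 were higher (27.8%) and 2 lower (11.1%). Egln1 was higher in MPP4 (1.80 ± 0.19). Epas1 was at least 138-fold lower there, its reads being 0 against the same floor, and was lower in MPP3 too (-4.50 ± 1.25). Oxidant defence genes had 5 of 17 higher in MPP3 (29.4%), and 8 higher (47.1%) and 1 lower (5.88%) in MPP4, with Gpx1, which removes peroxides, at 1.01 ± 0.12 in MPP4. In KO LT-HSCs 0 genes of any of these lists passed, and the ribosomal proteins of mitochondria had a median of 0.23.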

How the data were processed

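RNA was sequenced from 18 libraries, 3 mice per genotype and population; per the labels' protocols, RNA from 10000 to 40000 sorted cells gave cDNA by SMART-Seq v4 (1000 pg of RNA, 12 cycles) and Nextera XT libraries (600 pg of cDNA, 12 cycles). Per the submitters' processing notes, bcl2fastq 2.17.1.14, DESeq and mm10 were used; no source used here names the aligner, the counter, the annotation or whether strand was used, so reads of overlapping or near-identical genes are uncertain. The authors deposited raw read counts, a normalized signal per library, median transcript lengths, log2 fold changes and p-values of KO against WT, per the file headers. Every test used the raw counts; transcript lengths gave levels per kilobase, and the deposited signal was not analysed here.

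Genes were filtered with filterByExpr (16325 kept), scaled by TMM and tested in R 4.3.3 by the quasi-likelihood method (edgeR 4.0.16) over all 18 libraries with 1 mean per group, adjusted by Benjamini-Hochberg within each comparison at 0.05. SE was obtained by dividing each log2 fold change by the root of its F statistic. Alternative tests were voom (limma 3.58.1) and DESeq2 1.42.0, and the fit was tested on simulated data. Exact intervals came from scipy 1.17.1 and cover counting error only, since reads carry no molecular identifiers; a floor of 3 reads bounds folds against 0 reads. 0 pairs of libraries were identical.

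Members and lists were chosen with earlier results of these data known. Genes named are members of isoform pairs, core subunits, up to 6 called members per direction with the largest change and a higher group averaging 5 CPM or more, the 3 smallest p where none was called, and up to 3 genes of each further list; further members are named as examples. The labels do not say whether the number shared by libraries of different populations marks a mouse. Numbers were therefore not used as a block in edgeR's main test or in DESeq2. The voom test took genotype and number together as a block, with an estimated correlation. Alternatives are given in the closing section. Sequences came from GENCODE M21 and RefSeq tables; no genome sequence was used. One member's values are not reported here.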

Additional observations from a re-analysis of the deposited data

Results flagged for a closer look

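Ndufb1-ps matches the name pattern of complex I but is not annotated as protein coding in the deposited table, where its type is a bidirectional promoter lncRNA, so it was outside the comparisons. It had 10589 reads over the 18 libraries. Its level was 12.7 ± 0.97 CPM in WT LT-HSCs, 23.3 ± 5.06 in MPP3 and 23.9 ± 3.89 in MPP4 (SD, n = 3), with log2 differences from LT-HSCs of 0.88 ± 0.21 (adjusted p = 0.0083) and 0.92 ± 0.21 (adjusted p = 0.0035) by edgeR's test. Differences in KO LT-HSCs (0.44 ± 0.21) did not pass.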

How the results depend on the processing

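No called result changed direction under any alternative run. Medians of lists changed sign for 8 of the results, all near 0 or for lists with no call; the largest such changes were in mitochondrial medians without LT-HSC WT 2 and 3, from -0.08 to 0.60 (WT MPP3 against LT-HSC), -0.35 to 0.33 (WT MPP4 against LT-HSC) and -0.27 to 0.41 (KO against WT in LT-HSC). Members higher in WT MPP3 than in LT-HSC: 34 with the compared groups alone, 23 to 52 leaving out 1 library, and, in alternatives chosen after seeing the data, 22 without LT-HSC WT 2 and 3. Members higher in WT MPP4 than in LT-HSC: 42 to 59 leaving out 1 library. The 1 lower gave 0 with no filter and with the groups alone, 2 with libraries numbered 2 and 3, and 0 to 1 leaving out 1 library. WT MPP4 against MPP3: 2 higher with the replicate block, 0 higher without MPP3 WT 1, WT 2 and KO 1; the 1 lower gave 0 with no filter, the groups alone, libraries numbered 2 and 3, without those MPP3 libraries, and 0 to 1 leaving out 1 library. KO MPP3 against LT-HSC: 47 higher by voom and by the replicate block, 12 with libraries numbered 2 and 3, 11 without the MPP3 libraries, 8 to 30 leaving out 1. KO MPP4 against LT-HSC: 5 higher with library totals or no filter, 14 by DESeq2, 16 by voom and by the block, 4 with the groups alone or libraries numbered 2 and 3, 4 to 13 leaving out 1; the 1 lower gave 0 with no filter or the groups alone, 2 by DESeq2, 0 to 1 leaving out 1. KO MPP4 against MPP3: 2 lower with library totals, DESeq2 or voom, 3 with the block, 1 to 2 leaving out 1.

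KO against WT in LT-HSC: 1 member by DESeq2 (Uqcrfs1) and 1 without LT-HSC WT 2 and 3 (Atp5l, at 0.039 CPM in the WT library left); the unadjusted count was 23 with the groups alone, 24 without LT-HSC WT 2 and 3, and 12 to 48 leaving out 1. Same-numbered WT and KO libraries of a population correlated at 0.00839 to 0.0972 (median 0.0793), against -0.0934 to 0.089 (median -0.0336) for different numbers. Libraries differing in both population and genotype had medians of 0.0568 with the same number and -0.0351 with different numbers. What the number marks across genotypes was not tested. For KO against WT in LT-HSC the replicate block gave 48 unadjusted calls and 0 adjusted. In MPP3 it gave 9 unadjusted calls in place of 1. Among the counts of KO against WT, the block moved no other by over 1.5 times. The counts it moved between populations are given above. Of the alternatives for named members, 653 kept the call and 121 lost it; of those for medians, 273 moved by less than the spread between libraries and 13 by more. The cause was not tested. Depth limits the 6 untested members, with few or no reads. Same-numbered libraries of different populations of a genotype deviated together at correlations of 0.041 to 0.182, over 0.1 in 9 of 18 pairs, against -0.133 to 0.0467 for different numbers; each of the 18 libraries correlated best with its own number in both other populations, a hint from the data that the labels do not state. The block counts above use these numbers; they added Sdhb in WT MPP4 against MPP3, and Ndufb9 and Ndufc2 in KO.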
